A study of Homo sapiens with 6 samples.

Results

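The keratin genes were examined in COLO-320DM cells, an established human line from a colorectal tumour, sorted by whether they carried the hyaluronan receptor CD44 on their surface. A gene counted as a keratin where a probe set of the array was annotated with its symbol alone and the symbol was KRT followed by digits and at most 1 letter A, B or C, so keratin-associated proteins and pseudogenes stayed out. This gave 44 of 19775 genes, on 56 of 54675 probe sets, and each gene is represented by its probe set with the highest mean. The arrays comprised 3 from CD44-positive and 3 from CD44-negative cells of the same untreated line, numbered 01 to 03 in each sort, so a single line stands for the tumour type. The labels did not say that the numbers mark separate cultures, so a p-value here reflects spread among arrays that may be no more than technical. Levels are log2 RMA intensities, and differences are CD44-positive minus CD44-negative.

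Keratins are the intermediate filament proteins of epithelial cells. A filament forms only when an acidic type I keratin pairs with a basic type II keratin, so the genes are expressed in pairs that differ between epithelia. Simple epithelia such as the colon carry KRT8 with KRT18 and KRT19, and differentiated intestinal cells carry KRT20, which pathologists use with KRT7 to trace the origin of a carcinoma. Other pairs belong to stratified epithelia, to wounded epidermis and to hair. An array measures the RNA of the whole sorted pool, so fewer cells with a transcript and less transcript per cell cannot be told apart.

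The members held 24 type I and 20 type II genes. The type I genes lie on chromosome 17, apart from KRT18, which stands beside KRT8 in the type II cluster on chromosome 12. RefSeq lists 55 protein-coding genes with names of this form, and the 11 others, KRT6A, KRT6B, KRT6C, KRT17, KRT26, KRT28, KRT34, KRT39, KRT81, KRT82 and KRT86, were not analysed here. Of the members, 35 had 1 probe set and 9 had several.

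The keratin with the largest difference in size, KRT20, and a keratin with almost none, KRT10, are shown by the 250 bases before their RefSeq start (GRCh38.p14, minus strand, printed 5′ to 3′). They lie at chr17:40885243-40885492 and chr17:40822615-40822864. Capitals mark matches on either strand to TTTATN, a core of the sites bound by the intestinal factor CDX2, and to the TATA box TATAAA, which on the opposite strand always holds a TTTATN match as well.
KRT20: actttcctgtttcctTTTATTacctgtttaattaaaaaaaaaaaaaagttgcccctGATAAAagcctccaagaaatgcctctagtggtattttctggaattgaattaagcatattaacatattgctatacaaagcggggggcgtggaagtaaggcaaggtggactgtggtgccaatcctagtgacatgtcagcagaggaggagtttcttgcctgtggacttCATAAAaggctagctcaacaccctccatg
KRT10: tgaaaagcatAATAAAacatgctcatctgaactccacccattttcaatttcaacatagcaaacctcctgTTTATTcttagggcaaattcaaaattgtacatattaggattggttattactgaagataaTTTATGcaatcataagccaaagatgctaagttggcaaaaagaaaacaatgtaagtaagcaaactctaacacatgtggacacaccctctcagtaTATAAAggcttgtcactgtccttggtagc
KRT20 had 3 matches to TTTATN, beginning at positions -235, -194 and -29 from the start, and KRT10 had 4, of which the match at -29 was also a TATA box. TTTATN occurred in the windows of 27 of the 29 members found in the RefSeq promoter table, and in 33.6% of all 27305 windows. Of the keratins of simple epithelia only KRT20 was among these 27, and KRT16 was not. The other members were not in that table. TATAAA occurred in 15 of the 29, and in 11.1% of all. The Wnt effector motif of TCF/LEF, CTTTGAT, occurred in 1 of the 29, KRT2, and in 2.28% of all, and was in neither window printed. The AP-1 motif TGANTCA was in none of the 29 windows and in 6.60% of all, and the GC box GGGCGG was in 4 of the 29 and in 42.3% of all. These are matches of letters and describe the windows only.

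The sort itself was visible in CD44. It stood at 7.86, 8.12 and 7.11 on CD44-positive arrays 01 to 03 and at 5.41, 5.29 and 4.99 on the CD44-negative ones, with no overlap. Array medians lay between 44.9 and 46.5 on the intensity scale, log2 values correlated at 0.9915 to 0.9965 between arrays, and the number of arrays limits the precision of every value. The intestinal factor CDX2 was at 11.61 ± 0.094 and 11.69 ± 0.20 (SD, n = 3), whereas the epithelial adhesion genes EPCAM and CDH1 stayed under the dim limit on all 6 arrays, EPCAM at 4.40 and 4.87 and CDH1 at 4.07 and 4.17. That limit, the 30th percentile of gene means at 5.12, separates genes that were tested from genes taken as too dim to test. Of 16 epithelial junction and surface markers, 12 had a mean above it, such as MAL2 at 11.2 and 11.4 and TJP1 at 10.1 and 10.1. EPCAM and CDH1 were among the 4 that lay under it on every array.

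Keratins were divided evenly by the dim limit. Of the 44, 22 had a mean above the limit and were tested, 19 of them above it on all 6 arrays. A further 4 exceeded it on at least 1 array, and 18 on none. The boundary fell between KRT37, at a mean of 5.16, and KRT33B, at 5.02. Probe sets bind with different efficiency, so their levels are not ranked against one another.

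**Figure D1:**
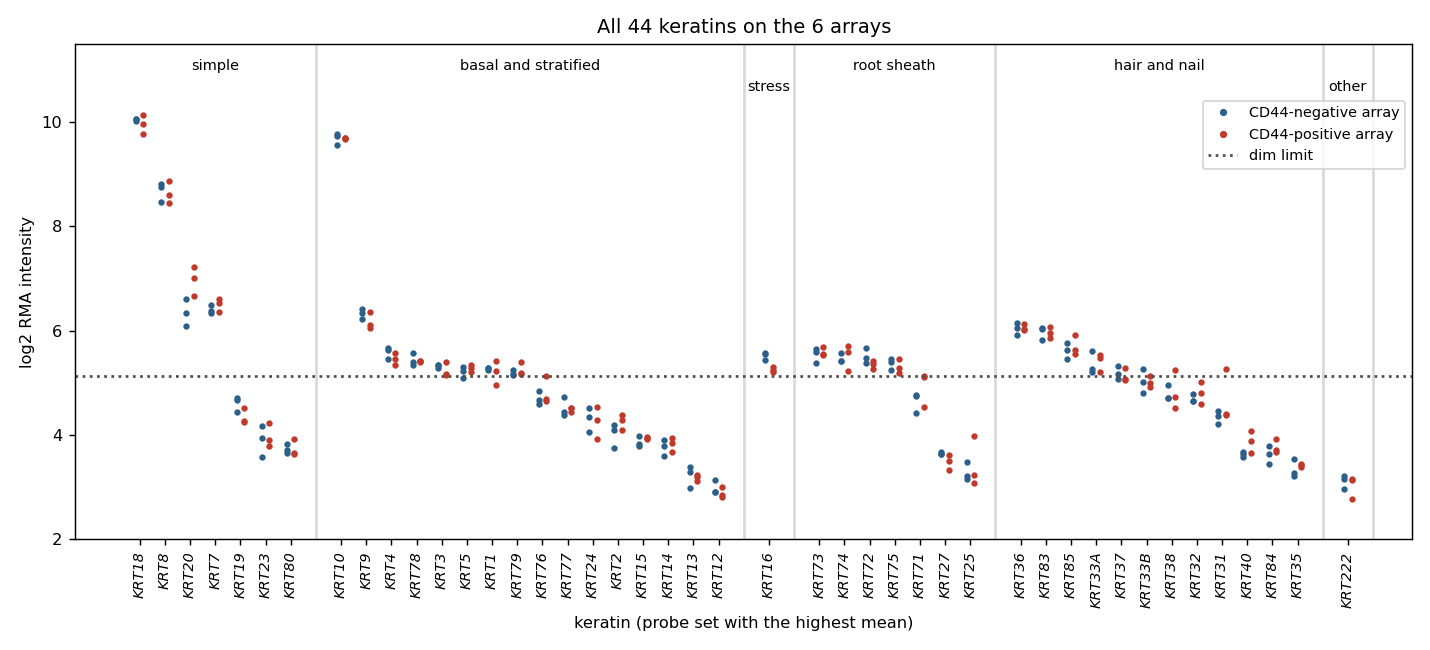
Level of each of the 44 keratins on the 6 arrays (log2 RMA intensity), grouped by the epithelium in which the keratin is known; blue points are the 3 CD44-negative and red points the 3 CD44-positive arrays, and the dotted line is the dim limit of 5.12. Levels compare arrays within a gene, not genes with one another; 22 genes have a mean above the line, and KRT20 and KRT16 are the genes above it in which the colours do not overlap.

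Among these 22 genes no difference passed limma's test at an adjusted p under 0.05, where 0% of the 13842 genes tested did. CD44, the gene of the sort, differed by 2.47 and failed here too (adjusted p = 0.106 by limma). When the replicate number entered the fit as a block no keratin passed either, against 0.0578% of all genes, 0.0289% higher and 0.0289% lower. CD44 passed with the block (adjusted p = 0.00176 by limma). The fit without the block thus missed even the sort marker, and a keratin that failed in it is not shown to be unchanged. At an unadjusted p under 0.05 there were 2 keratins in each fit, KRT20 and KRT16, beside 1.97% of all genes without and 7.49% with the block. Split by direction, these were 1.24% higher and 0.73% lower without the block, and 4.24% higher and 3.25% lower with it. Of the 22, 10 were higher and 12 lower in CD44-positive cells, with a median difference of -0.021, beside -0.0026 over all genes tested. The difference was under 0.2 in size in 20 of them. For 21 of the 22 the 95% interval lay within a 1.5-fold change in either direction, the exception being KRT20. Only 5 of the 22 also reached the 50th percentile of gene means. RMA compresses differences near background, so narrow intervals at low levels may understate the change in transcript.

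**Figure D2:**
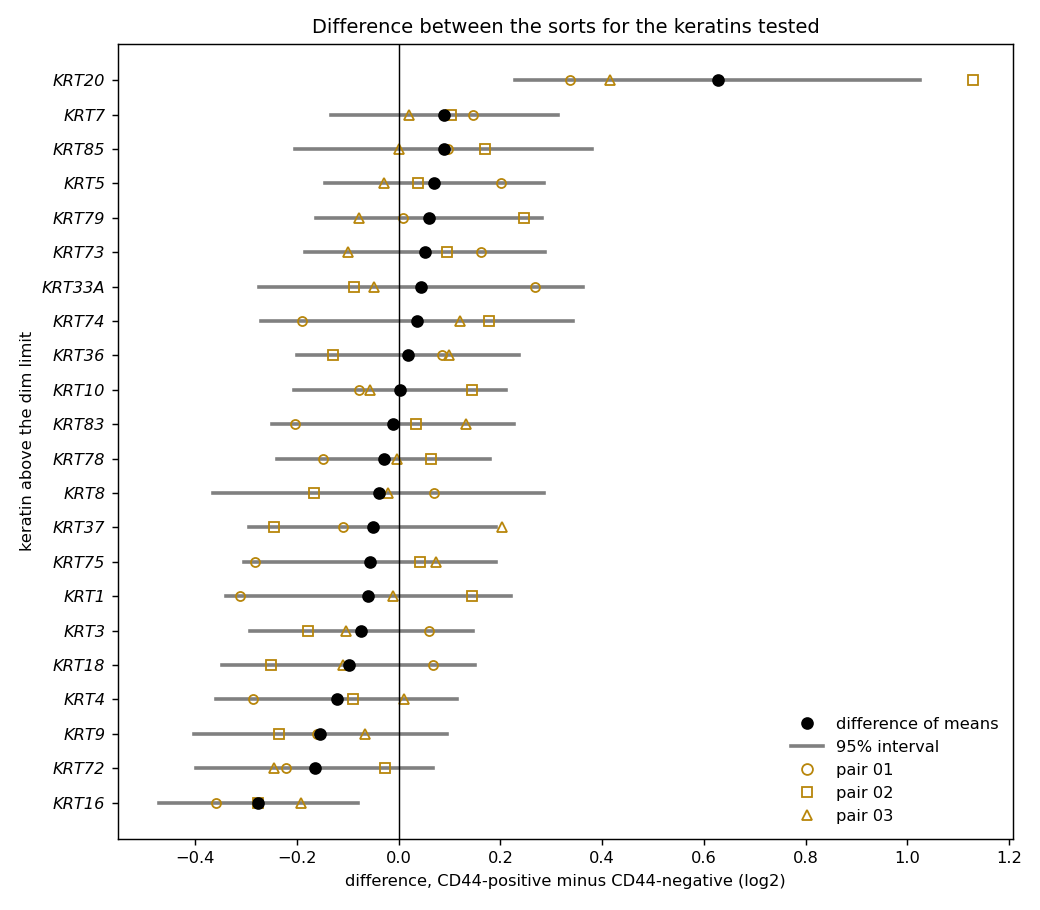
Difference between the sorts (CD44-positive minus CD44-negative, log2) for the 22 keratins tested; black points are differences of means, grey bars limma's 95% intervals over 3 arrays per group, and open symbols the 3 pairs of same-numbered arrays. The interval excludes 0 for KRT20 (0.23 to 1.03) and KRT16 (-0.47 to -0.080) before adjustment, and neither gene passed after it.

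KRT20, the type I keratin of differentiated intestinal cells, stood at 6.67, 7.23 and 7.02 on CD44-positive arrays 01 to 03 and at 6.33, 6.10 and 6.60 on CD44-negative arrays 01 to 03. The groups did not overlap, though the gap between CD44-positive array 01 and CD44-negative array 03 was small. The groups did not overlap in 9.09% of the keratins tested, KRT20 upward and KRT16 downward, and in 5.43% of all genes tested (2.82% higher, 2.6% lower). The means were 6.97 ± 0.28 and 6.34 ± 0.25 (SD, n = 3), which differed 1.54-fold, by 0.63 ± 0.17 (SE) on the log2 scale. Of all genes tested, 57 (0.412%) had a difference at least as large in that direction.

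Limma gave KRT20 an unadjusted p of 0.00663 and an adjusted p of 1.00, and with the replicate block 0.00333 and 0.298. A two-sided exact permutation test on its 6 values gave p = 0.1, the smallest that 3 arrays against 3 allow. The pairs differed by 0.34, 1.13 and 0.42, so pair 02 was the widest, and without it the blocked difference was 0.38 (adjusted p = 0.357 by limma). Without pair 03 it was 0.73 (adjusted p = 0.0628), and without any 1 array it ranged from 0.50 to 0.78. KRT20 has a single probe set, so no second measurement of it exists on this array. Its nearest keratin neighbours on chromosome 17, KRT12 and KRT23, were under the dim limit on all 6 arrays, with differences of -0.099 and 0.083.

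No fibroblast marker passed the test with or without the block, and their differences had both signs. The mean log2 level of the 13 fibroblast markers on the arrays was 5.76 to 6.06 in CD44-positive and 5.56 to 5.63 in CD44-negative cells, 5 of the 8 tested were higher and 3 lower, and 3 of the 13 were under the limit on every array. LUM, the gene of the matrix protein lumican, was not tested, with means of 4.55 and 2.53 and 1 array above the limit. Its groups did not overlap. Its difference of 2.02, the widest of the 13, entered the mean level of the markers, which included those not tested. The widest tested differences were those of the collagen gene COL3A1, at 0.78 (adjusted p = 1.00, with the block 0.0526), and the calcium-binding S100A4, at 0.71 (adjusted p = 1.00, with the block 0.178). The 3 lower ones were the collagen gene COL1A1, at -0.23 with no overlap between the groups, PDGFRB at -0.13 and DCN at -0.036. COL1A2 had no overlap either, in the other direction, at 0.31. Of the 8 tested, 1 was thus higher and 1 lower without overlap, beside 2.82% and 2.6% of all genes tested. ACTA2 differed by 0.44, higher in 3 of 3 pairs, but its groups overlapped. At an unadjusted p under 0.05 by limma there was 1 of the 8 without the block, beside 1.97% of all genes. With the block there were 5 of the 8, COL1A1 among them, beside 7.49% of all genes. The mean log2 levels of the leukocyte markers on the arrays, 5.18 to 5.26 and 5.22 to 5.31, overlapped between the sorts. Those of the neuroendocrine markers, 4.99 to 5.26 and 4.94 to 5.25, did so too. Of the leukocyte markers 1 of 6 tested was higher, with a median of -0.082, ITGAM at -0.14 and CSF1R at -0.11. Of the neuroendocrine markers 4 of 5 tested were higher, with a median of 0.080, ENO2 at 0.49 and DDC at -0.28. Of these 5, 1 had an unadjusted p under 0.05 by limma without the block and 3 with it. The shares of all genes were 1.97% and 7.49%. Among the 6 leukocyte markers there were 0 in both fits. ENO2 was above the limit on 2 arrays only, those numbered 02. SYP, at 0.17, had no overlap between the groups, beside 2.82% of all genes tested in that direction. The part of these other genes in the difference of KRT20 was not tested.

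KRT16, a type I keratin of wounded and hyperproliferative epidermis, ran the other way. It stood at 5.20, 5.29 and 5.25 on CD44-positive arrays 01 to 03 and at 5.56, 5.57 and 5.44 on the CD44-negative ones. All 3 CD44-negative arrays lay above the CD44-positive arrays, and all 6 lay close to the dim limit, where differences are compressed. The difference was -0.28 ± 0.085 (SE), 1.21-fold lower, with pair values of -0.36, -0.28 and -0.19. Its adjusted p by limma was 1.00 without and 0.346 with the block, and its exact permutation p was 0.1. The type II partners of KRT16, KRT6A and its copies, were not analysed here. KRT14, its measured neighbour on chromosome 17, was dim, at 3.82 ± 0.14 and 3.76 ± 0.15 (SD, n = 3).

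**Figure D3:**
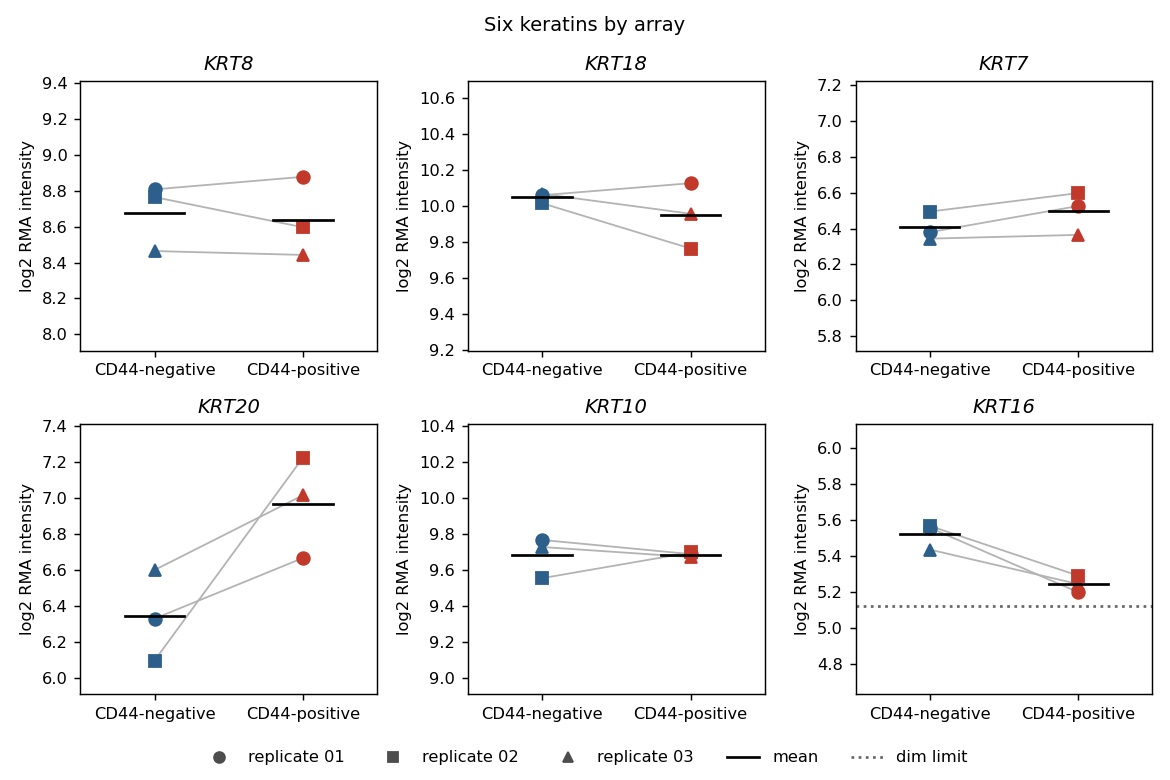
Levels of 6 keratins on each array (log2 RMA intensity), every panel spanning the same 1.5 units; symbols give the replicate number, grey lines join same-numbered arrays and black bars are group means over 3 arrays. KRT20 shows no overlap, with CD44-positive values from 6.67 to 7.23, and KRT16 none in the other direction; KRT8, KRT18, KRT7 and KRT10 overlap.

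KRT8 and KRT18, the obligate pair of simple epithelia, did not pass the test. KRT18 was at 10.13, 9.77 and 9.96 on the CD44-positive and at 10.06, 10.02 and 10.07 on the CD44-negative arrays. Its difference was -0.098 (95% interval -0.35 to 0.15), with most of the spread among the CD44-positive arrays. KRT8 was at 8.88, 8.60 and 8.44 on CD44-positive and at 8.81, 8.76 and 8.46 on CD44-negative arrays 01 to 03, a difference of -0.040 (-0.36 to 0.29). In KRT8 both arrays numbered 03 lay under the other 4. The 2 partners shared their sign in every pair, with KRT18 at 0.067, -0.25 and -0.11 and KRT8 at 0.070, -0.17 and -0.022. Both probe sets carry the _x_at suffix for possible cross-hybridisation, and both genes have many processed pseudogenes, so these levels are uncertain.

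KRT19, the other type I partner of KRT8 in the colon, was under the limit on all 6 arrays. Its brighter probe set read 4.51, 4.26 and 4.24 in CD44-positive and 4.68, 4.71 and 4.43 in CD44-negative cells, and its second one from 2.94 to 3.28 and from 3.26 to 3.37. The groups overlapped in both probe sets, and differences of -0.27 and -0.19 at such levels have only an approximate size. KRT7, a type II keratin of ducts, was at 6.53, 6.60 and 6.36 on CD44-positive and at 6.38, 6.49 and 6.34 on CD44-negative arrays. Its difference of 0.090 (-0.13 to 0.31) had the same sign in 3 of 3 pairs, but the groups overlapped. The 3 remaining KRT7 probe sets were dim on all arrays, with differences from -0.025 to 0.068. KRT23, a type I keratin of simple epithelia, and KRT80 were dim as well. KRT23 read 3.79, 3.91 and 4.23 against 3.57, 3.95 and 4.16, with array 01 the lowest and array 03 the highest in both sorts.

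The basal and stratified keratins gave 8 tested members of 16, 3 higher and 5 lower, with a median difference of -0.045. KRT10, the type I keratin of differentiating epidermis, was far above the limit, at 9.69, 9.70 and 9.67 in CD44-positive and 9.77, 9.55 and 9.73 in CD44-negative cells. Its difference was 0.0028 (-0.21 to 0.21), and its 2 further probe sets differed by 0.019 and -0.045. All KRT10 probe sets carry an _x_at or _s_at suffix for possible cross-hybridisation, so its level is uncertain. KRT9, a keratin of palm and sole, was at 6.06, 6.11 and 6.35 against 6.22, 6.35 and 6.41, a difference of -0.15 (-0.40 to 0.095). It was lower in 3 of 3 pairs, but the groups overlapped and its adjusted p was 1.00 by limma, with the block 0.692. KRT4, a type II keratin of mucosal squamous epithelium, had means of 5.46 and 5.58 and differed by -0.12 on its brighter probe set and by 0.077 on the other, so its probe sets disagreed in sign. The type II keratins KRT1, KRT3, KRT5, KRT78 and KRT79, of epidermis, cornea and other stratified epithelia, differed by -0.060, -0.074, 0.070, -0.030 and 0.059. Their CD44-positive and CD44-negative means were 5.20 and 5.26 for KRT1, 5.24 and 5.31 for KRT3, 5.27 and 5.20 for KRT5, 5.41 and 5.44 for KRT78 and 5.24 and 5.19 for KRT79. The second, dim probe set of KRT78 differed by 0.17. The partners of KRT5 in the basal layer, KRT14 and KRT15, were dim on all 6 arrays.

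Among root sheath keratins 4 of 7 were tested. KRT72 was at 5.26, 5.36 and 5.41 in CD44-positive and 5.48, 5.38 and 5.66 in CD44-negative cells, lower in 3 of 3 pairs by -0.17 (-0.40 to 0.067), with an adjusted p of 1.00 by limma and of 0.687 with the block. KRT73, KRT74 and KRT75 differed by 0.052, 0.036 and -0.057, with means of 5.59 and 5.54, 5.50 and 5.47, and 5.31 and 5.36. A second probe set differed by -0.15 for KRT73, where it was dim, and by 0.086 for KRT74. Of the hair and nail keratins 5 of 12 were tested, KRT36, KRT83, KRT85, KRT33A and KRT37, with differences of 0.018, -0.012, 0.089, 0.044 and -0.051. The means were 6.06 and 6.04 for KRT36, 5.96 and 5.97 for KRT83, 5.40 and 5.36 for KRT33A and 5.13 and 5.18 for KRT37. KRT85 read 5.55, 5.92 and 5.63 against 5.46, 5.75 and 5.63, both highest on the arrays numbered 02.

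The sign agreed in 3 of 3 pairs for 5 of the 22 tested keratins (22.7%), KRT20, KRT7, KRT16, KRT9 and KRT72, beside 28.5% of all genes tested. Over these 22 genes, which share their arrays, the deviations of arrays 01, 02 and 03 in one sort correlated with those in the other at 0.205, -0.001 and 0.442, and those of differently numbered arrays at -0.535 to 0.365, so the numbers did not stand apart in the keratins. Over all genes tested the values were 0.465, 0.689 and 0.626 for the same numbers and -0.496 to -0.107 for different ones. Deviations from a group mean cancel within each sort, so the values for different numbers are not independent of those for the same numbers.

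Of the 22 dim keratins, with means from 2.93 to 5.02, 4 passed the limit on some array. KRT31, a hair keratin, reached 5.27 on CD44-positive array 02 and lay between 4.21 and 4.45 on the other 5, with pair differences of 0.17, 0.82 and 0.038 around a difference of 0.34. KRT38 and KRT76 each exceeded the limit only on CD44-positive array 03, at 5.25 and 5.13. KRT33B did so on CD44-positive array 03 and CD44-negative array 02, at 5.14 and 5.26. The dim keratins differed by -0.27 to 0.34, and in KRT27, a root sheath keratin at 3.33 to 3.60 against 3.63 to 3.67, the groups did not overlap. Among the brighter genes tested, 2.6% were lower without overlap. KRT222 had differences of -0.078 and 0.12 on its 2 probe sets, both far under the limit. On the second, dimmer one the groups did not overlap.

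Genes that work with keratins were read in the same fit, and none of them passed with or without the block. The desmosome and anchor genes, which tie keratin filaments to cell junctions, gave 8 of 17 tested members higher and a median of -0.023. The linker dystonin, DST, differed by 0.26 (-0.079 to 0.59) and the desmoplakin gene DSP by -0.18 (-0.87 to 0.51). Keratin-modifying and keratin-binding genes gave 7 of 14 higher, with a median of 0.013, the small heat shock gene HSPB1 at 0.19 and the LIM protein gene AJUBA at -0.15. Epithelial transcription factors gave 3 of 8 higher, with a median of -0.055, KLF4 at -0.12 and KLF5 at 0.11. Epithelial junction and surface markers gave 5 of 12 higher, with a median of -0.040, the intestinal cadherin CDH17 at 0.29 and the tight junction gene TJP3 at -0.23. EPCAM, dim and not tested, differed by -0.47. The groups did not overlap in EPCAM and TJP3, nor in the dim FAM83H and SPRR3 of the other lists, all lower. Among all genes tested, 2.6% were lower without overlap. Stratified and squamous markers gave 1 of 6 higher, with a median of -0.014, PKP1 at 0.13 and SPRR1A at -0.11.

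Intermediate filament genes outside the keratins gave 6 of 10 tested members higher and a median of 0.064. The groups did not overlap in 4 higher and 2 lower members, beside 2.82% and 2.6% of all genes tested. At an unadjusted p under 0.05 by limma there were 5 of the 10, beside 1.97% of all genes. The sign agreed in 3 of 3 pairs for 9 of the 10, beside 28.5% of all genes. The neurofilament gene NEFL was at 11.10 against 10.61, a difference of 0.49 (adjusted p = 1.00 by limma, with the block 0.124), and SYNM, which encodes synemin, was at 6.19 against 5.73, a difference of 0.45 (with the block 0.341). VIM, the filament gene of mesenchymal cells, stood at 13.04 ± 0.14 and 12.93 ± 0.054 (SD, n = 3). The 3 lamins, the filaments of the nucleus, differed by -0.031 to 0.032, LMNB2 the lowest and LMNA the highest. Whether these lists differ from the keratins was not tested.

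**Figure D4:**
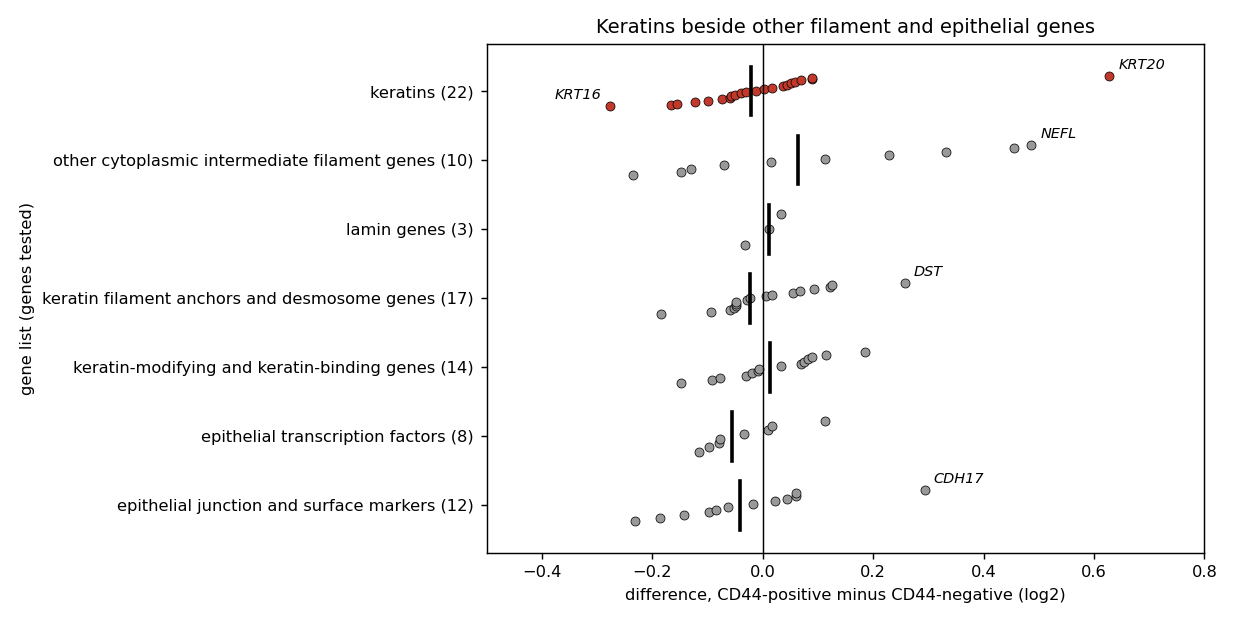
Difference between the sorts (CD44-positive minus CD44-negative, log2) of each gene tested in 7 lists; points are genes, red for keratins, black bars are list medians, and the number of genes tested is in brackets. The keratins lie within 0.2 of 0 apart from KRT20 at 0.63 and KRT16 at -0.28, and no gene in the plot passed the test.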

How the data were processed

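RNA of sorted COLO-320DM cells was hybridised to Affymetrix arrays, 3 for each sort. The deposited values are linear intensity values made with RMA by the authors, per the submitters' processing notes; the RMA version and genome build are not given in the sources used here. Since the values were linear, log2 was taken with no pseudocount. RMA compresses differences near background. Of 54675 probe sets, 41091 had 1 gene, 1801 several, 11721 none and 62 were controls. A gene took its probe set with the highest mean; genes under the 30th percentile were left out, and 13842 of 19775 were fitted with limma 3.58.1 in R 4.3.3. P-values were adjusted over all of them (Benjamini-Hochberg, threshold 0.05). The script was tested on simulated data, drawn without an effect of the replicate number, so that test does not bear on the pairing. Python 3.11.15, pandas 2.3.3, numpy 2.4.6 and matplotlib 3.10.9 were used.

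Labels give both sorts the numbers 01 to 03 without a shared day or culture. Deviations of same-numbered arrays correlated at 0.465, 0.689 and 0.626, so the numbers were taken as pairs; the fit with the replicate block stands beside the fit without it. Every keratin above the dim limit was named; of dim keratins, those with an array above it or groups that do not overlap, all probe sets of the simple keratins KRT19 and KRT23 and of KRT222, and partners or neighbours (KRT12, KRT14, KRT15, KRT80) chosen after their values were seen. In other lists the 2 tested members with the largest differences were named. CDX2, EPCAM, CDH1, MAL2, TJP1, FAM83H, SPRR3, LUM, COL1A1, COL1A2, ACTA2, PDGFRB, DCN, SYP and VIM were chosen after their values were seen. Members and lists were chosen with earlier results of these data known. Alternatives were another normalization, dim limit, probe set choice, variance model and leaving out arrays.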

Additional observations from a re-analysis of the deposited data

How the results depend on the processing

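No keratin passed under any alternative run, with or without the replicate block, and the smallest adjusted p of a keratin by limma was 0.0628, for KRT20 with the block and without pair 03. KRT20 and KRT16 kept their signs throughout, from 0.38 to 0.84 and from -0.32 to -0.23. The highest value of KRT20 came from the block with array weights (adjusted p = 0.0724), a combination chosen, like the block with each other setting, after seeing the data. The other lists had 0 calls with the block. At a limit on the 50th percentile, 5 keratins were tested.

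The count over all genes, 0 as planned (273 at an unadjusted p under 0.05), was 8 with the replicate block, 2 with no dim filter, 1 without _s_at and _x_at probe sets, 5 with every probe set and 1 with array weights. Leaving out 1 array gave 0 to 1. With the block, it was 18 with median centring, 4 with quantile normalization, 5 with no filter, 16 at the 50th percentile, 6 with the mean of probe sets, 20 without _s_at and _x_at probe sets, 33 with every probe set, 78 with trend and robust moderation, and 43 with array weights. Dropping a pair gave 10 (pair 01), 63 (pair 02) or 127 (pair 03).

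Signs turned in keratins with small differences. With array weights KRT1 was at 0.038, KRT10 at -0.0027, KRT36 at -0.0054 and KRT83 at 0.014. With the mean of probe sets KRT10 was at -0.0078 and KRT78 at 0.068. With 1 array left out in turn, the difference ranged in KRT1 from -0.17 to 0.060, in KRT8 from -0.16 to 0.058, in KRT10 from -0.062 to 0.045, in KRT33A from -0.034 to 0.17, in KRT36 from -0.043 to 0.075, in KRT37 from -0.12 to 0.016, in KRT73 from -0.030 to 0.11, in KRT74 from -0.059 to 0.18, in KRT75 from -0.13 to 0.0069, in KRT78 from -0.075 to 0.036, in KRT79 from -0.016 to 0.10, in KRT83 from -0.087 to 0.040 and in KRT85 from -0.022 to 0.16. Without pair 01, and with the replicate block, KRT1 was at 0.066, KRT33A at -0.068, KRT36 at -0.016, KRT73 at -0.0031, KRT75 at 0.057, KRT78 at 0.030 and KRT83 at 0.084. Without pair 02, and with the replicate block, KRT8 was at 0.024, KRT10 at -0.067, KRT37 at 0.047, KRT74 at -0.035 and KRT79 at -0.034. Without pair 03, and with the replicate block, KRT36 was at -0.023 and KRT74 at -0.0060. The cause was not tested.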
